A study of Mus musculus with 6 samples.

Results

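The genes described here are 10 genes that are widely used to recognise fibroblasts of the testis interstitium. All are genes of the connective tissue matrix except Tcf21, the gene of a transcription factor. They are Dcn, Lum, Bgn, Ogn, Postn, Fbln1, Fbln2, Dpt, Mfap5 and Tcf21, taken by name, with earlier results of these data known. They were measured by 19 of the 45037 probe sets tested, a probe set being the group of array probes that reports 1 transcript. At gene level they are 10 of 18193 genes, each represented by its brightest probe set over all arrays.

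The samples were cell fractions of prepubertal mouse testis, separated with magnetic beads by whether they carry Thy1, a small surface protein anchored in the membrane. The labels give 3 arrays of the Thy1-negative fraction, here N1, N2 and N3, and 3 of the Thy1-positive fraction, here P1, P2 and P3, each from an independent donor preparation. The study asked which genes are higher in the Thy1-positive fraction, in which transplantation had found the spermatogonial stem cells enriched. Neither fraction carried a transgene or treatment in the labels, and strain and exact age are not given in the sources used here. Both fractions are mixtures of cells, so fewer cells of a type and less RNA per cell cannot be told apart in any result below.

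Fibroblasts lay down the collagen network of the interstitium between the seminiferous tubules. Small leucine-rich proteoglycans such as decorin, lumican, biglycan and osteoglycin bind collagen and tune the width of its fibrils. Fibulins and microfibril-associated proteins organise elastic fibres and microfibrils, whereas periostin and dermatopontin link matrix proteins to each other and to cells. Tcf21 is a basic helix-loop-helix transcription factor of mesenchymal progenitors. Thy1 itself is found on many fibroblasts as well as on stem spermatogonia and lymphocytes.

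Levels are log2(intensity + 1), and differences are Thy1-positive minus Thy1-negative means on that scale. SE and adjusted p are those of limma, with Benjamini-Hochberg adjustment over all 18193 genes unless probe sets are named, and n = 3 arrays per fraction throughout. A gene was called at an adjusted p below 0.05. As a check of the sort, Thy1 stood at 2.35, 2.35 and 2.74 on N1 to N3 and at 6.05, 6.52 and 6.05 on P1 to P3. Counted from the 25th percentile of the Thy1-negative arrays, it was at least 11.4-fold higher (adjusted p = 0.000984).

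The 10 genes did not move as a block. Postn and Fbln1 were higher in Thy1-positive cells, Fbln2, Bgn and Tcf21 were lower, and Dcn, Lum, Ogn, Dpt and Mfap5 were not called. Of all genes, 18.5% were called higher and 14.4% called lower, so the share of members called in either direction, 5 of 10 beside 33% of all genes, is not set apart from the background by a test. The median difference of the members was 0.59, against 0.01 for all genes, and it was 0.34 without N2 and 0.10 without P2. Among the 19 probe sets 2 were called higher and 2 lower, beside 11.8% and 11.5% of all probe sets (23.4% in either direction). The fractions did not overlap for 2 members that were higher and 3 that were lower, the same genes as those called, whereas 31.6% and 19.8% of all genes did so (51.4% either way). The member counts fell to 1 higher and 1 lower without N1, without P1 or without P3, and to 2 higher and 0 lower without N3. With each array centred on its median, 2 members were again higher and 3 lower, while 10436 of all genes were higher and 2659 lower, in place of 3368 and 2628.

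**Figure D1:**
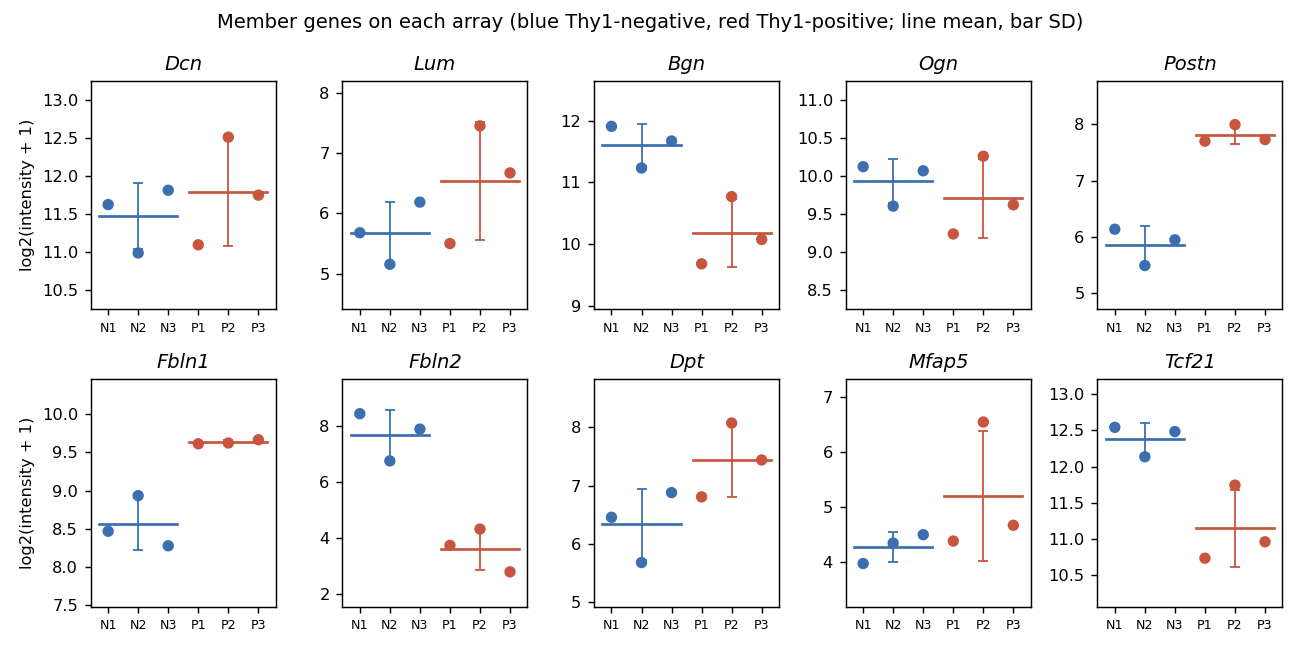
Level of each member gene on the 6 arrays, as log2(intensity + 1), with Thy1-negative arrays N1 to N3 in blue and Thy1-positive arrays P1 to P3 in red; lines are means and bars SD of 3 arrays. Postn and Fbln1 lie higher and Fbln2, Bgn and Tcf21 lower on all 3 Thy1-positive arrays, and P2 is the highest Thy1-positive array for 9 of the 10 genes.

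The sequence just upstream of the transcription start is shown for a pair of genes that were lower, Bgn and Tcf21, and a pair that were higher, Postn and Fbln1, because these genes, all used to recognise fibroblasts, went opposite ways. RefSeq promoter windows (GRCm38.p6) were at hand for 7 of the 10 members. Capitals mark each CANNTG, the E-box core that basic helix-loop-helix factors such as Tcf21 recognise, read 5′ to 3′ over the 250 bases before the start site. The windows are chrX:73483351-73483600 (plus strand), chr10:22820144-22820393 (minus strand), chr3:54359017-54359266 (plus strand) and chr15:85205699-85205948 (plus strand).
Bgn: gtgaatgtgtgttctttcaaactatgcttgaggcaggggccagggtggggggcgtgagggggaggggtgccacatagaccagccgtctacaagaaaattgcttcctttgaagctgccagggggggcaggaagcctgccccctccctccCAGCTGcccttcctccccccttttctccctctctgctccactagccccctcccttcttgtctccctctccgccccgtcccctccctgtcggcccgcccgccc
Tcf21: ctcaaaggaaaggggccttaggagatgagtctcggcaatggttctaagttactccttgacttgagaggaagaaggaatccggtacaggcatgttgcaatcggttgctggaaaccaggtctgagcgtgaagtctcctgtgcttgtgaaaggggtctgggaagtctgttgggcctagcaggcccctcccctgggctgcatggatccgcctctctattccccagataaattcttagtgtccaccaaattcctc
Postn: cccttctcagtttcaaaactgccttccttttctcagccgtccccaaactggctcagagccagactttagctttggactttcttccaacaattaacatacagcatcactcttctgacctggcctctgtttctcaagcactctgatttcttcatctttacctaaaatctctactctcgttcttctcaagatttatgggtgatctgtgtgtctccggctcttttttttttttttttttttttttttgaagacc
Fbln1: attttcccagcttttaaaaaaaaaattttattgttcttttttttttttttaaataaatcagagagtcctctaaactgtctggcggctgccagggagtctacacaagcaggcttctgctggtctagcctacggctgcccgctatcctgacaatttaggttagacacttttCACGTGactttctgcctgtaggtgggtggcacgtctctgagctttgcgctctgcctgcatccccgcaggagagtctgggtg
The Bgn window holds 1 E-box, of the form CAGCTG, and that of Fbln1 holds another, of the form CACGTG. The Tcf21 and Postn windows hold 0. Dpt holds 6 such cores and Ogn 3, each with 1 CAGCTG. A match to the E-box core on one strand is a match on the other, so counting either strand covers both. The genes and motifs shown were chosen after the values had been seen, and of the listed windows of Postn and Fbln1 the one at the gene start was taken. Of 27025 windows of the same length, 1 per gene, 66.0% hold the E-box core CANNTG, 12.8% hold its form CAGCTG, and 13.0% hold TATAAA on either strand, of which these 4 windows hold 0. A match is a run of letters and not a bound site.

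Bgn encodes biglycan, a proteoglycan that binds collagen and growth factors of the TGF-beta family. Its levels were 11.91, 11.23 and 11.67 on N1 to N3 and 9.68, 10.77 and 10.07 on P1 to P3. All Thy1-positive arrays were below all Thy1-negative arrays, with P2 and N2 nearest to each other. Bgn fell by 1.43 on the log2 scale, a 2.69-fold decrease (SE 0.35, adjusted p = 0.0370). Its other probe sets differed by -1.37 and -1.17 and did not overlap between fractions either. Adjusted over all probe sets these missed the threshold (adjusted p = 0.0626 and 0.0833), while the brightest passed (adjusted p = 0.0485). The call was lost without N1 (-1.28, adjusted p = 0.113), N3 (-1.40, 0.120), P1 (-1.18, 0.0885) or P3 (-1.38, 0.123).

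Dcn encodes decorin, the closest relative of biglycan among these genes and a regulator of collagen fibril width. Its level was 11.62, 10.98 and 11.81 in Thy1-negative and 11.09, 12.51 and 11.74 in Thy1-positive cells. The fractions overlapped, and the highest value of all was that of P2. The difference was 0.31 (95% interval -0.86 to 1.48, adjusted p = 0.684), and it was 0.07 without N2, 0.66 without P1 and -0.05 without P2. A further Dcn probe set lay between 2.80 and 2.83 on 5 arrays and at 3.43 on P2, a dim range that 36.7% to 37.3% of the values of each array share by being below 3.

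Lum encodes lumican, a keratan sulphate proteoglycan that spaces collagen fibrils. It measured 5.68, 5.16 and 6.19 against 5.50, 7.46 and 6.67. P2 and P3 were above all Thy1-negative arrays and P1 was not. The difference was 0.87 (95% interval -0.70 to 2.44, adjusted p = 0.351), with 1.39 without P1 and 0.41 without P2. Ogn encodes osteoglycin, also called mimecan, another collagen-binding member of the family. Its brighter probe set gave 10.13, 9.61 and 10.07 against 9.24, 10.26 and 9.62, so the fractions overlapped from end to end. The difference was -0.23 (95% interval -1.06 to 0.61, adjusted p = 0.675), and that of its other probe set -0.35. The difference of the brighter one was 0.01 without P1, -0.39 without N2 and -0.50 without P2.

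Dcn and Ogn each lie at an end of a small run of related genes on their chromosome. Among protein-coding genes of the RefSeq table (GRCm38.p6) Dcn is followed by Lum, Kera and Epyc, and Ogn is preceded by Omd, Aspn and Ecm2. Kera, keratocan of the cornea, was at low signal on every array (2.57 to 2.59), low signal being a fraction mean below the 25th percentile of its arrays. Epyc, epiphycan of cartilage, was dim and fell by 0.57 on the log2 scale (SE 0.044, adjusted p = 0.00273), from 3.69 ± 0.08 (SD) to 3.12 ± 0.003. Aspn, asporin, measured 4.78, 4.28 and 4.33 against 5.49, 5.05 and 5.00. These did not overlap, but the difference of 0.72 was not called (adjusted p = 0.0555). Omd and Ecm2 were not called (-0.35 and 0.79).

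Fbln1 and Fbln2, the fibulins that share a domain plan of repeated calcium-binding modules, went opposite ways. Fbln1 measured 8.46, 8.93 and 8.27 on the Thy1-negative arrays and 9.61, 9.62 and 9.67 on the Thy1-positive arrays. Its Thy1-positive values were almost equal (SD 0.03), the tightest of all members. Fbln1 rose by 1.08, or 2.11-fold (SE 0.18, adjusted p = 0.0147). A dimmer probe set of Fbln1 differed by 0.56 and overlapped (adjusted p = 0.298 over probe sets), and another stayed between 2.83 and 2.84 on every array. Fbln1 is spliced into variants with different ends, and which variant each probe set reads was not examined. The call was lost without N1 (1.03, adjusted p = 0.0568), P1 (1.09, 0.0540) or P3 (1.06, 0.0654).

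Fbln2 had the largest change of the 10 genes. The Thy1-negative arrays N1 to N3 read 8.42, 6.74 and 7.88, and P1 to P3 read 3.74, 4.32 and 2.80. The fractions were far apart, and P3 lay in the dim range below 3. Fbln2 fell by 4.06 on the log2 scale, a 16.7-fold decrease (SE 0.62, adjusted p = 0.0114). It missed the threshold without N3 (-3.97, adjusted p = 0.0529). Its other probe set stayed between 3.12 and 3.14 on all 6 arrays, so it reported no signal in either fraction that moved.

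Mfap5 encodes microfibril-associated glycoprotein 2, which decorates fibrillin microfibrils. It measured 3.98, 4.35 and 4.50 against 4.39, 6.54 and 4.67. P2 alone stood clear of the other arrays. The difference was 0.92 (95% interval -0.77 to 2.62, adjusted p = 0.359), and 0.25 without P2. On its dimmer probe set 5 arrays lay between 2.54 and 2.70 and P2 at 4.57.

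Postn encodes periostin, a secreted matricellular protein that binds collagen and integrins. Its level was 6.13, 5.48 and 5.94 in Thy1-negative and 7.70, 8.00 and 7.73 in Thy1-positive cells. All Thy1-positive arrays were above all Thy1-negative arrays with a wide gap. Postn rose by 1.96, or 3.88-fold (SE 0.20, adjusted p = 0.00505), and it was called without each single array, with differences from 1.77 to 2.10. Dpt encodes dermatopontin, a small matrix protein that binds decorin. It measured 6.46, 5.68 and 6.88 against 6.81, 8.07 and 7.44. Only P1 fell within the Thy1-negative range. The difference was 1.10 (95% interval -0.13 to 2.33, adjusted p = 0.149), so a 2-fold rise and no change at all both lie within its interval.

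Tcf21 was bright in both fractions, at 12.54, 12.13 and 12.48 against 10.74, 11.74 and 10.96. Every Thy1-positive array lay below every Thy1-negative array. Tcf21 fell by 1.24 on the log2 scale, a 2.36-fold decrease (SE 0.31, adjusted p = 0.0387 over genes and 0.0508 over probe sets). Of the 6 fits that left out 1 array it was called only without P2 (-1.54). The others gave -1.16, -1.36 and -1.19 without N1, N2 and N3, and -1.03 and -1.15 without P1 and P3. A further Tcf21 probe set was at low signal on all arrays (2.29 to 2.31).

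**Figure D2:**
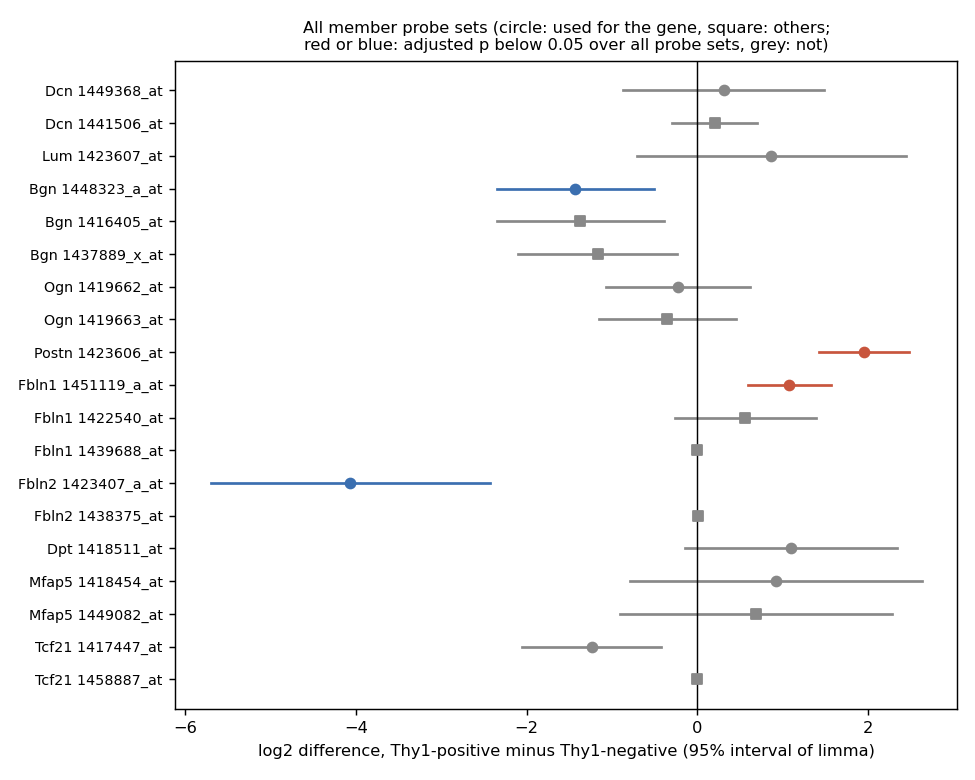
Difference between Thy1-positive and Thy1-negative means for all 19 member probe sets, on the log2 scale, with limma's 95% intervals; circles are the probe sets that represent the gene, squares the others, and colour marks an adjusted p below 0.05 over all probe sets. The 3 probe sets of Bgn lie together below 0, whereas the further probe sets of Fbln1, Fbln2 and Tcf21 near 0 are dim in both fractions or overlap.

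The Thy1-positive arrays differed among themselves in a way that ran through most members, as a count made after the values had been seen shows. P2 was the highest Thy1-positive array for 9 of the 10 genes, all but Fbln1, where 34.1% of all genes have their highest Thy1-positive value on P2. P1 was the lowest for 9, all but Fbln2, against 32.7% of all genes. Among the Thy1-negative arrays N2 was the lowest for 8 members, all but Fbln1 and Mfap5, against 56.2% of all genes. This order was not particular to the members. Each list of related genes had its lowest mean on P1 and its highest on P2. For 15 further fibroblast genes it was 7.58, 8.72 and 7.99 on P1 to P3. The 12 macrophage genes had the same order (9.86, 10.33 and 10.13), whereas the 12 germ cell genes were lowest on P2 (11.22, 11.115 and 11.21). Of the further lists of somatic cells, some were also high on P2 and others were not. The mean level of 11 Sertoli cell genes was 7.87 on P2 against 6.20 and 6.36 on P1 and P3, and that of 10 peritubular myoid genes 6.35 against 5.89 and 5.97. The mean of 4 Leydig cell genes was lower on P2, at 8.58 against 9.13 and 9.28, as was that of 6 pericyte genes, at 6.81 against 7.04 and 7.02. That of 10 endothelial genes was 4.36 on P2, between 4.28 on P1 and 4.42 on P3. Whether the makeup of P2 sets the members' values there was not tested. Without P2 the members called were again 2 higher and 3 lower.

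Because the spread was shared, each member was also set against Dcn within the same array, a comparison chosen after the values had been seen and given as a description. The size of such a log2 ratio has no meaning between probe sets, but its change between arrays does. Bgn minus Dcn was 0.29, 0.25 and -0.14 on N1 to N3, and -1.41, -1.74 and -1.67 on P1 to P3. The SD of Bgn over the Thy1-positive arrays was 0.55 and that of its ratio to Dcn 0.17. Tcf21 minus Dcn was 0.92, 1.15 and 0.67 against -0.35, -0.76 and -0.78, with an SD of 0.24 in place of 0.53. Dpt minus Dcn moved the other way, from -5.16, -5.30 and -4.93 to -4.28, -4.43 and -4.30, with an SD of 0.08 in place of 0.63. Bgn and Tcf21 were therefore lower, and Dpt higher, in proportion to Dcn on each Thy1-positive array, P2 included.

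The SD over the Thy1-positive arrays was smaller relative to Dcn for 6 of 9 members, where 10.9% of genes above the median level did so. The members were counted whatever their level, so these shares come from unlike sets. A gene that varies far less than Dcn (SD 0.71) cannot have a smaller SD once Dcn is subtracted. The 10.9% therefore also depends on how many genes vary that much. The exceptions were Postn (0.16 to 0.56), Fbln1 (0.03 to 0.71) and Fbln2 (0.77 to 0.80). For Postn and Fbln1, whose own SD was small, this outcome was fixed in advance. Postn was still lowest on P1 and highest on P2, as Dcn was. Fbln1 was highest on P3 and Fbln2 lowest on P3, unlike Dcn. In these ratios the fractions did not overlap for 7 of 9 members, all but Fbln1 and Mfap5, against 18.9% of all genes. Before Dcn was subtracted that share of all genes was 51.4%. A gene that varies little takes on the overlap of Dcn itself in its ratio. The 18.9% is therefore lowered by the subtraction and does not set the members apart. The gap was narrow for Lum, which rose (-5.62 on N3 against -5.59 on P1), and for Ogn, which fell (-1.74 on N3 against -1.85 on P1).

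**Figure D3:**
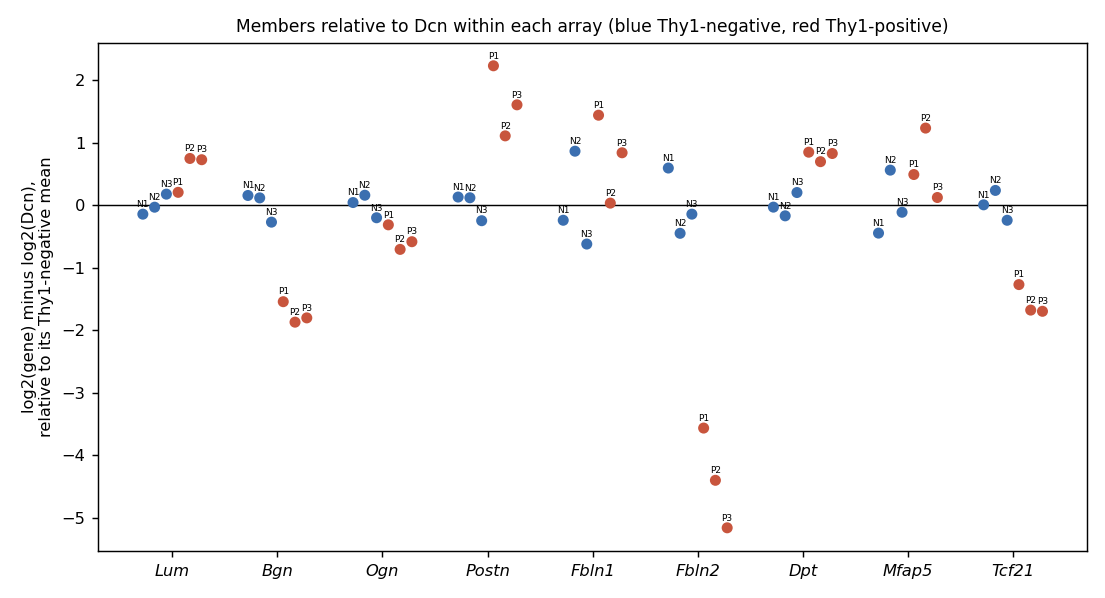
Log2 level of each of the other 9 members minus that of Dcn on the same array, shifted so that the Thy1-negative mean is 0; blue points are N1 to N3 and red points P1 to P3. Bgn, Tcf21 and Fbln2 fall on every Thy1-positive array and Postn and Dpt rise. Lum rises and Ogn falls with a narrow gap between fractions, while Fbln1 and Mfap5 overlap.

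The likeness of a gene's pattern to Dcn was measured as the root mean square difference between the log2 profiles over the 6 arrays, each centred on its own mean. Among 9089 other genes above the median level, the 5 most like Dcn were Ebf1, a transcription factor (0.10), Igf1, a growth factor (0.13), the membrane protein genes Emp3 (0.13) and Emp2 (0.15), and Sh3pxd2a, an adaptor protein gene (0.16). Ebf1 measured 7.35, 6.68 and 7.58 against 6.83, 7.96 and 7.46. Igf1 measured 10.84, 10.11 and 11.02 against 10.57, 11.65 and 11.13. These profiles, like that of Dcn, dip on N2 and P1 and peak on P2. Among the members Ogn (0.31) and Lum (0.34) came nearest, with 0.550% and 1.22% of the 9089 genes closer to Dcn, followed by Dpt (0.41, 3.84%) and Mfap5 (0.54, 25.1%). The 5 called members lay farther off, with 66.3% to 99.2% of genes closer. Their distance includes the difference between fractions by which they were called, and Dcn was not called. It therefore does not show separately how these genes vary within a fraction. The 6 arrays are few and all genes share them, so this is a description.

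In 5 of the 6 lists of related genes more genes were called lower than higher in Thy1-positive cells, beside 14.4% of all genes called lower and 18.5% higher. For the further proteoglycans (2 of 11 lower) and the further fibroblast genes (2 of 15 lower) that share was close to the one of all genes. The lists also share genes, such as Pcolce, so they do not count as separate. Of 11 further small leucine-rich proteoglycans measured, 0 were called higher and 2 lower, with a median of 0.004. Fmod, fibromodulin, was one of the 2 and fell by 3.09 on the log2 scale, from 7.53 ± 0.27 (SD) to 4.43 ± 0.92 (SE 0.51, adjusted p = 0.0141). It was not called without N3 (-2.97) or P3 (-3.22), where the list's lower count was 1, and the list had 1 gene called higher without N2 or without P2. Its other probe sets differed by -1.99, -0.61, -0.43, -0.33 and -0.09. The other was Epyc, and Prelp, with a cationic end that binds basement membranes, was not called (-0.42, adjusted p = 0.211), although its dimmer probe set fell by 1.64.

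Of 17 elastic fibre genes and other fibulins, 1 was higher and 7 were lower, with a median of -0.72. The lower ones included Ltbp3 (-2.63, SE 0.36), Ltbp2 (-2.57, SE 0.47), which bind latent TGF-beta or fibrillin, and Eln, the gene of elastin (-2.48, SE 0.62). Ltbp2 was not called without N3 (-2.71), P1 (-2.32) or P3 (-2.51). Eln was called only without P2 (-3.02) among the fits without 1 array, the others giving -2.67, -2.21, -2.55, -1.97 and -2.44 without N1, N2, N3, P1 and P3, and its other probe set differed by -0.55. Emilin2, an elastic fibre glycoprotein gene also known from blood cells, rose by 3.42 (SE 0.28, adjusted p = 0.00317). Fbn2 (-0.24) and Mfap4 (-1.44, adjusted p = 0.0790) were not called, although Mfap4 was called without P2 (-1.91). The lower count was 3 without N3 or without P3, and 10 without P2, where the median was -1.29.

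Of 17 matricellular genes, the class to which Postn belongs, 1 was higher and 6 were lower, with a median of -0.20. Ccn1 and Ccn2, growth-factor-like matrix signals, fell by 3.73 and 2.87 on the log2 scale (SE 0.47 and 0.24, adjusted p = 0.00764 and 0.00334). Tnxb, a tenascin of connective tissue, fell from 4.40 ± 0.03 (SD) to low signal and was at least 3.31-fold lower (adjusted p = 0.000107). Comp, a thrombospondin relative of cartilage and tendon, rose by 2.36 (SE 0.32, adjusted p = 0.00884). Smoc2 and Sparcl1 were not called (0.03 and -0.37), and Smoc2 differed by -0.24 without P2. The lower count was 3 without N1, N3, P1 or P3. The median was -0.0060 without N3, -0.0012 without P1, -0.53 without N2 and -0.47 without P2. After the values had been seen, 5 of these genes were matched under current symbols, Ccn1 and Ccn2 among them, and without them 1 of 12 was higher and 3 were lower (median -0.11).

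Of 18 genes of collagen fibril assembly, 0 were higher and 5 lower, with a median of -0.34. Pcolce, an enhancer of collagen propeptide removal, fell by 2.21 on the log2 scale (SE 0.25, adjusted p = 0.00619). Bmp1, the protease it enhances, fell by 1.77 (SE 0.47, adjusted p = 0.0475), and Serpinh1, the collagen chaperone HSP47, by 1.52 (SE 0.37, adjusted p = 0.0376). A further bright probe set of Bmp1 differed by -0.83 and overlapped between fractions (adjusted p = 0.437 over probe sets), and a dim one differed by 0.0023. Bmp1 was called only without P2 (-2.15) among those 6 fits, with -1.61, -2.00, -1.69, -1.37 and -1.79 without N1, N2, N3, P1 and P3. Serpinh1 was not called without N1 (-1.36), N3 (-1.42), P1 (-1.26) or P3 (-1.50). The fibrillar collagen genes Col3a1 (-0.48) and Col1a2 (-0.65) were not called (adjusted p = 0.388 and 0.353). The lower count was 2, 1, 2 and 1 without N1, N3, P1 and P3, and 1 gene was called higher without N2. The median was -0.52 without N2, -0.12 without P1 and -0.56 without P2.

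Of 15 further genes used for interstitial fibroblasts, 0 were higher and 2 lower, with a median of -0.44. Besides Pcolce this was Mgp, the matrix Gla protein (-1.66, SE 0.43, adjusted p = 0.0438), which was not called without N1 (-1.43), N3 (-1.54), P1 (-1.47) or P3 (-1.55). Pdgfra, the PDGF receptor of mesenchymal cells, measured 12.15 ± 0.31 (SD) against 11.82 ± 0.45 and was not called (adjusted p = 0.474). Its other probe sets differed by 0.45 and -0.65, and each overlapped between fractions. Gsn, the actin-severing protein gelsolin, was not called either (-0.44). The lower count was 1 without N3, P1 or P3 and 5 without P2. The median was -0.14 without P1 and -0.85 without P2.

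Tcf21 works as a dimer with broadly expressed E-proteins. The 5 relatives and partners listed were all called, 3 higher and 2 lower, where 33% of all genes were called in either direction. Tcf15, Tcf3 and the Tcf21 paralogue Msc rose by 1.58, 0.78 and 0.60 (adjusted p = 0.0165, 0.0352 and 0.0158), while Tcf4 and Tcf12 fell by 1.05 and 0.45 on the log2 scale (adjusted p = 0.0181 and 0.00719). Other probe sets of Tcf4 ranged from -1.59 to 0.01 and those of Tcf12 from -1.05 to 0.26. A further bright probe set of Tcf3 differed by 0.19 and overlapped between fractions (adjusted p = 0.560 over probe sets), and another differed by 0.88. Msc was dim, at 3.42 ± 0.16 (SD) against 4.01 ± 0.11. Tcf15 was not called without N3 (1.55), P1 (1.54) or P3 (1.58). Tcf3 failed without N1 (0.77), N3 (0.70) or P3 (0.81), and Msc without N3 (0.64) or P3 (0.63). Tcf4 failed without N3 (-0.99), P1 (-1.03), P2 (-1.06) or P3 (-1.05). The higher count was 0 without N3 or P3, and the lower count 1 without N3, P1, P2 or P3.

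**Figure D4:**
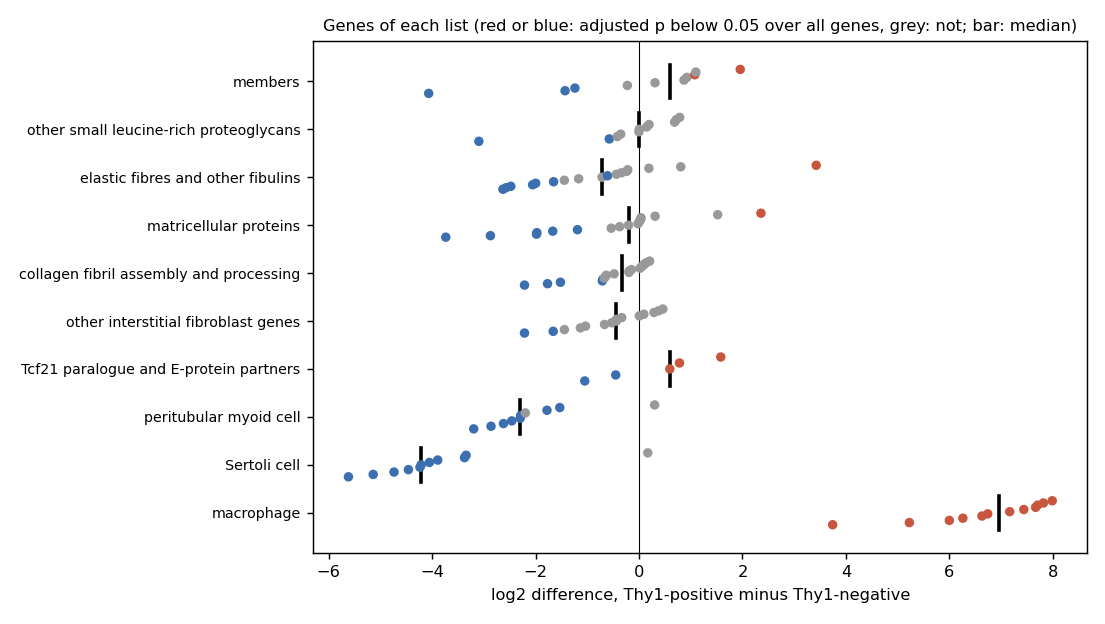
Log2 difference, Thy1-positive minus Thy1-negative, of each gene of the member list, of 6 related lists and of 3 cell type lists; red and blue mark genes called higher and lower over all genes, grey those not called, and bars are medians. The members spread to both sides of 0, whereas peritubular myoid and Sertoli cell genes lie mostly below and macrophage genes above.

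Markers of other cells moved with the fractions too. Of 10 peritubular myoid genes 8 were lower and 0 higher (median -2.29), among them Acta2, Mylk and Tpm2, and 5 were lower without P3. Their summed intensity was 18214 to 20592 in Thy1-negative and 2625 to 3668 in Thy1-positive cells, and 1 of the 10 was at low signal in the latter. Of 11 Sertoli cell genes 10 were lower (median -4.21), Clu, Aard and Inha among them, and the lower count was 5 without N1 and 4 without N3 or P3. Their sums were 89803 to 111194.5 against 5291 to 21440, with 2 at low signal in Thy1-positive cells. Of 4 Leydig cell genes Hsd3b1 and Cyp17a1 were lower and Cyp11a1 (-0.81) was not called (list median -1.17), with sums of 4801 to 9694 against 2309 to 3732. Without any single array other than N2, 0 Leydig genes were called by limma.

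All 12 macrophage genes were higher (median 6.95), Lyz2, Mrc1 and C1qb being the brightest, also without each single array. Their sums were 145 to 183 in Thy1-negative cells, where 4 were at low signal, against 14437.5 to 21533. Of 12 germ cell genes 9 were higher and 0 lower (median 2.50), Ddx4 among them, while Dazl (0.94) and Mael (1.59) were not called. Their sums were 11218 to 27682 against 44971 to 48749, and the higher count was 4 without N3 or P3, 6 without P1 or P2 and 12 without N2. Of 6 T lymphocyte genes 3 were higher, Lat, Cd3g and Cd3d (list median 1.85), with sums of 46.8 to 62.5 against 412 to 439 and 2 at low signal in Thy1-negative cells.

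Pericyte and endothelial genes had few calls. Of 6 pericyte genes 1 was higher, Rgs5, named after its value was seen (4.93), and Pdgfrb (0.09), Abcc9 (0.28) and Cspg4 (-1.03) were not called. The pericyte median was 0.19, with -0.23 without N2 and -0.03 without P1, and the sums were 463 to 1088 against 981 to 1679. The 10 endothelial genes had 2 higher and 1 lower (median 0.04), and Egfl7 (0.88), Eng (-0.34) and Cdh5 (-0.41) were not called. Their sums were 368 to 426 against 427 to 505, with 1 and 2 at low signal in Thy1-negative and Thy1-positive cells. The endothelial lower count was 0 without any single array other than N2, and the higher count was 1 without N1, N3 or P3.

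No intensity in the table was 0. Fbln2, Bgn and Tcf21 were lower in the fraction where the myoid, Sertoli and Leydig lists had genes called lower. Postn and Fbln1 were higher in the fraction where the macrophage, germ cell and T lymphocyte lists had genes called higher. The part of those cells in the members' differences was not tested.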

How the data were processed

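RNA of 6 mouse testis fractions was measured on Affymetrix arrays, 1 per sample. Each probe set has an intensity, not logged, in the authors' deposited table. The submitters' processing notes name GCRMA, and the sample descriptions name Affymetrix software with a scaling target of 150, so the origin of these values is unsettled.

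Of 45101 probe sets, 64 controls were left out. The log2 of intensity + 1 was analysed without filtering or renormalizing. The platform table gave 34945 probe sets 1 gene, 932 several and 9160 none, and all 10 members matched RefSeq by Entrez identifier. The 2-sided comparison used lmFit and eBayes of limma 3.58.1 in R 4.3.3, and the fit was tested on simulated data. The labels do not say that arrays of one number share a preparation, so no block was used. Deviations of same-numbered arrays from their fraction means correlated at -0.19, -0.17 and -0.01. With 3 arrays per fraction these values cannot show whether the numbers pair the arrays.

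All members are named. Of each related list, up to 3 called genes per direction with the largest change and the 2 brightest genes not called are named. Of each cell type list, counts, summed levels and up to 3 of the brightest genes are given. For likeness to Dcn, the 5 nearest genes are given. Members, lists and tests were chosen with earlier results of these data known.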

Additional observations from a re-analysis of the deposited data

How the results depend on the processing

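At their brightest probe sets Postn, Fbln1, Fbln2, Bgn and Tcf21 kept their direction under every alternative run. The count of lower member probe sets was 1 with a pseudocount of 16 or without probe sets ending in _x_at or _s_at, 4 with a floor at the 25th percentile or an intensity trend with robust variance, 5 with probe sets above the median only and 7 with array weights. Median centring of arrays gave 5 higher and 5 lower member probe sets and moved the median difference of all genes from 0.01 to 0.13, with 25863 probe sets and 10436 genes higher. Array weights, whose estimation stopped before its tolerance was met, gave 13345 higher and 10596 lower probe sets and 7518 and 4750 genes. With each gene taken as the average of its probe sets, 1 member was higher.

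With the replicate block, 0 members were higher or lower as genes or as probe sets (Postn 1.96, adjusted p = 0.0617). Of all, the block left 931 higher and 548 lower genes and 746 and 485 probe sets. The numbers are not known to pair the arrays. The limma fit without the block had 15784 probe sets at an unadjusted p below 0.05, a count under another model and threshold. With 1 array or both arrays of a number left out, members called ranged from 0 to 2 higher and 0 to 3 lower genes, and from 0 to 3 higher and 0 to 5 lower probe sets. All genes ranged from 149 to 4349 higher and 61 to 3116 lower, and all probe sets from 219 to 6790 and 144 to 6214.

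The values that changed sign belonged to genes and probe sets not called in the reported fit. Quantile normalization gave -0.0029 for a dim probe set of Fbln1, -0.017 for Smoc2. Median centring gave 0.12 for a dim probe set of Tcf21. Array weights gave -0.10 for Dcn over probe sets, 0.00090 for a dim probe set of Tcf21, -0.099 for Dcn, -0.16 for Smoc2, -0.021 for Emp3, -0.055 for Sh3pxd2a, -0.027 for Emp2, -0.16 for Ebf1. Over the fits that left out arrays, the difference ranged from -0.0083 to 0.31 for a dim probe set of Dcn, from -0.30 to 0.73 for Dcn over probe sets, from -0.30 to 0.73 for Dcn, from -0.32 to 0.58 for Ebf1, from -0.25 to 0.52 for Emp2, from -0.097 to 0.67 for Emp3, from -0.080 to 0.83 for Igf1, from -0.67 to 0.10 for Ogn over probe sets, from -0.67 to 0.10 for Ogn, from -0.19 to 0.56 for Sh3pxd2a, from -0.45 to 0.43 for Smoc2, from -0.94 to 0.012 for Sparcl1. The cause of these changes was not tested, beyond the fewer arrays of the fits that leave some out. The number of arrays limits the precision.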
